A study of Homo sapiens with 36 samples.

Results

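The comparison described here set MDA-MB-231 cells given SHP1705 and carfilzomib together for 24 h against cells given the solvent DMSO for 24 h, across all genes of the count table of that experiment. It was chosen by treatment label alone and holds 6 of the 36 libraries of the series, 3 in each group. MDA-MB-231 is an established human cell line from a triple-negative breast cancer. The combined dose was 10 uM SHP1705 with 10 nM carfilzomib. The same experiment held 3 libraries of SHP1705 alone and 3 of carfilzomib alone at those doses for 24 h, which were used to see what each drug did by itself. The series also holds 8 h experiments with carfilzomib and with MG132, another proteasome inhibitor. Every group was a culture of the same cell line, and every culture, controls included, received DMSO, in which the drugs had been dissolved. The submitters describe the experiments as independent but do not say how the 3 replicates of a group were grown, so each p-value reflects library-to-library spread, which may be technical.

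SHP1705 is a small molecule that stabilizes cryptochromes, the repressors of the circadian clock. In that clock the pair BMAL1 and CLOCK binds E-box elements and switches on the period, cryptochrome and REV-ERB genes, whose products then shut the pair down or, for REV-ERB, repress the BMAL1 gene. Carfilzomib is an irreversible inhibitor of the proteasome, the protease that degrades ubiquitin-tagged proteins. When proteasome activity falls, cells are known to raise proteasome subunit genes through the transcription factor NRF1 and chaperone genes through heat shock factors.

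The 12 libraries of the 24 h experiment held 18864725 to 34008423 counts each, and the 3 combination libraries held 25689149, 24455211 and 25759504. No pair of replicates held identical values. On the first principal component, with 47.1% of the variance of the 1000 genes used, the libraries with carfilzomib lay apart from those without it. On the second, with 19.97%, those with SHP1705 lay apart from those without it. The summed level of 6 genes known in MDA-MB-231 cells (VIM, CD44, EGFR, AXL, CAV1 and MSN) was 4525 to 4550 CPM (read counts scaled to library size) with DMSO and 4129 to 4150 CPM with the combination. The hormone receptor transcripts ESR1 and PGR had at most 3 and 2 counts in any library. They belong to a list of 6 genes known to be low in these cells, of which others were detected. EPCAM lay at 14.9 to 16.3 CPM with DMSO and 14.3 to 16.3 CPM with the combination, and GATA3 at 12.9 to 15.2 and 14.5 to 18.2 CPM. The summed level of the 6 was 29.4 to 33.3 CPM with DMSO and 31.7 to 35.9 CPM with the combination. Among markers of other cell types, DCN, APOA2 and TTR were at 0 counts in all 12 libraries and POSTN had at most 1. Other members of these lists were detected: CD68 lay at 100.04 to 107 CPM with DMSO and 126 to 141 CPM with the combination, PDGFRB at 6.04 to 6.78 and 8.89 to 10.5 CPM, and SERPINA1 at 31.5 to 42.5 and 18.9 to 28.6 CPM, each of them called. The summed level of the 9 fibroblast markers was 10.8 to 11.8 CPM with DMSO and 13.7 to 15.4 CPM with the combination, that of 8 blood markers 102 to 112 and 128 to 145 CPM, and that of 7 liver markers 31.7 to 42.8 and 19.5 to 29.1 CPM. Their part in the results was not tested.

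Of 16183 genes tested, 4424 (27.3%) differed between the combination and DMSO at an adjusted p under 0.05 in edgeR's quasi-likelihood test. Of these, 2109 were higher with the combination, which is 13% of all tested genes, and 2315 were lower, which is 14.3%. Most changes were small: 93% of the called genes moved by less than 2-fold, 198 rose by 2-fold or more (1.22% of all tested genes) and 111 fell by 2-fold or more (0.686%). For 44.4% of all tested genes the 3 combination libraries did not overlap the 3 DMSO libraries, and 26.9% were also called. Counts are relative to each library's total, so fewer cells in a given state and less of a transcript per cell cannot be told apart. Among genes with a mean of at least 5 CPM, those that fell furthest were clock genes, and those that rose furthest were an aldo-keto reductase, a heat shock gene and a ganglioside enzyme.

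**Figure D1:**
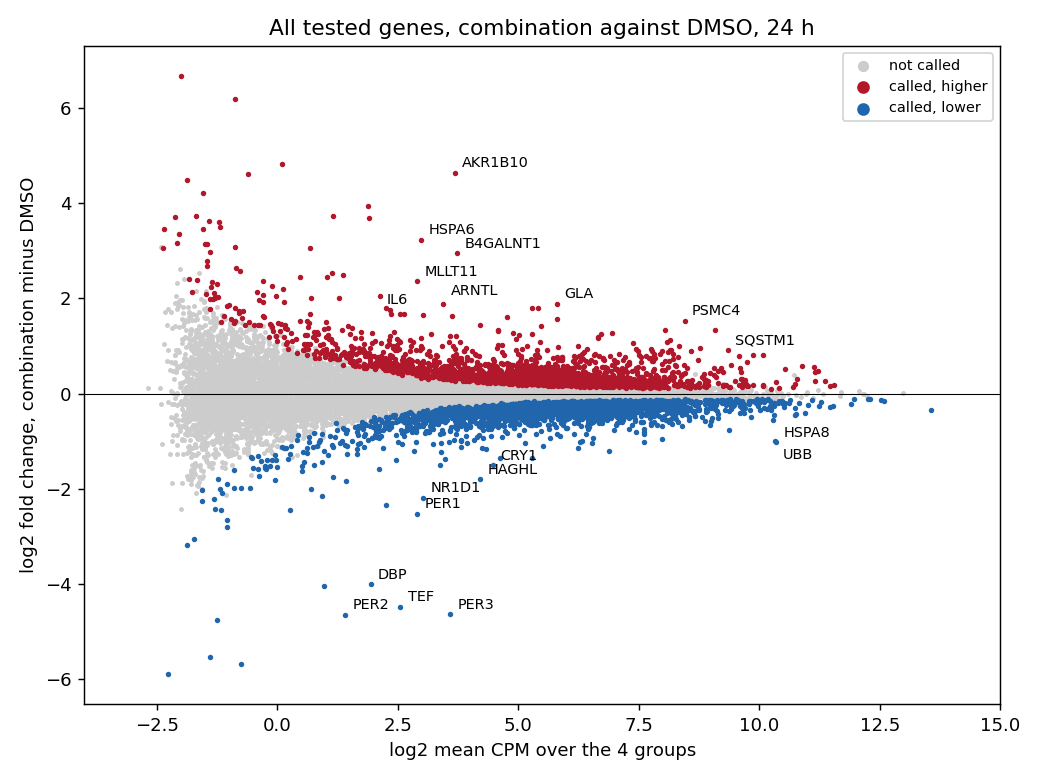
Log2 fold change (combination minus DMSO, vertical axis) against log2 mean CPM over the 4 groups (horizontal axis) for the 16183 tested genes. Red points were called higher (2109 genes) and blue points lower (2315 genes). PER3, TEF, PER2 and DBP lie lowest among the labelled genes and AKR1B10 highest.

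Promoter sequences are shown first for 3 gene groups with a known element, the clock, heat shock and proteasome genes. They are RefSeq sequences on GRCh38.p14, read 5′ to 3′ on the strand of the gene from the 250 bases before an annotated start, with the match in capitals. Some genes have several starts, and the HSPA8 and PSMA4 stretches below overlap exons of transcripts that begin elsewhere. The E-box CACGTG, which reads the same on both strands, was found in 6 of 12 tested clock genes of the E-box list (50%) and in 7.73% of all 27305 genes with a promoter in the reference. The windows lie at chr17:8152545-8152604 (PER1, minus strand), chr22:41367233-41367292 (TEF, plus strand), chr3:23945939-23945998 (NR1D2, plus strand) and chr1:150282398-150282457 (CIART, plus strand).
PER1: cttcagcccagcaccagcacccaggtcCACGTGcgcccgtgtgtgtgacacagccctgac
TEF: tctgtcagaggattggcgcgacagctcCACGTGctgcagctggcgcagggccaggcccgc
NR1D2: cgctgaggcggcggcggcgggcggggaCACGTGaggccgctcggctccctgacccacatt
CIART: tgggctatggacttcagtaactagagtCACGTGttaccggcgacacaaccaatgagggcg

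For the chaperone genes the match shown is GAANNTTC, a pair of inverted units of the heat shock element, which also reads the same on both strands. It was found in 15 of 26 heat shock genes with a promoter (57.7%) and in 7.05% of all genes. The windows lie at chr1:161524333-161524394 (HSPA6, plus strand), chr19:14518440-14518501 (DNAJB1, minus strand) and chr11:123062349-123062376 (HSPA8, minus strand). These 3 genes are shown because they carry the same element and moved in different directions.
HSPA6: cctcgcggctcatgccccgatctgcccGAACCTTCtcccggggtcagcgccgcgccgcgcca
DNAJB1: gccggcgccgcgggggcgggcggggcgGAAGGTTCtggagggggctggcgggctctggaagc
HSPA8: gggcgagcttGAAAGTTCcagaacgctg

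For the proteasome genes the match shown is TGACNNNGC, the core of the antioxidant response element, searched on both strands. Its letters can overlap those of an AP-1 site. It was found in 7 of 28 proteasome genes with a promoter (25%) and in 13.2% of all genes. It was also found in 5 of 12 clock genes of the E-box list (41.7%) and 5 of 26 heat shock genes (19.2%), so its share was not highest among the proteasome genes. The windows lie at chr17:67366707-67366769 (PSMD12, minus strand), chr17:38752610-38752672 (PSMB3, plus strand) and chr15:78540650-78540678 (PSMA4, plus strand). A match describes the letters only.
PSMD12: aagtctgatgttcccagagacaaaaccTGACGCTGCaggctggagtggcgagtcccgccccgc
PSMB3: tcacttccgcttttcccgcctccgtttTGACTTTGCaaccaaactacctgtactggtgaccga
PSMA4: gtgggcacgaTGACTCTGCaccgcctcct

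Clock genes under E-box elements fell with the combination. Of 12 tested members, 11 were called lower and none higher, where 14.3% of all tested genes were called lower and 13% higher. The median log2 fold change was -1.85, against a median of 0.00 over all tested genes. PER3, a period gene at chr1:7784291-7845177, had 22.6, 22.9 and 18.9 CPM with DMSO and 0.619, 1.05 and 0.923 CPM with the combination. The groups did not overlap, and the log2 fold change was -4.63 ± 0.18 (SE; adjusted p = 9.09e-15). PER2 went from 5.51, 5.87 and 4.65 CPM to 0.271, 0.0405 and 0.308 CPM, a log2 fold change of -4.65 ± 0.39. PER1 went from 11.8, 13.1 and 10.6 CPM to 1.59, 2.19 and 2.42 CPM. All 3 period genes were thus at low levels in every combination library.

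The outputs of the clock that act as transcription factors moved the same way. TEF, a PAR bZIP factor with the E-box shown above, had 10.3, 9.20 and 11.4 CPM with DMSO and 0.348, 0.730 and 0.308 CPM with the combination (log2 fold change -4.47 ± 0.23). DBP, of the same family, fell by 4.01 on the log2 scale. The E-box repressors BHLHE40 and BHLHE41 fell less, with log2 fold changes of -0.53 ± 0.05 and -1.02 ± 0.16. CIART, a repressor with 3 E-boxes in the 250 bases searched, of which 1 is in the stretch printed above, had 0.592 to 1.55 CPM with DMSO and 0.269 to 0.813 CPM with the combination, and was the member that was not called (adjusted p = 0.121).

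Repressors within the core loop also fell. NR1D1, which encodes REV-ERB alpha, had 11.03, 11.1 and 9.94 CPM with DMSO and 1.97, 2.68 and 2.39 CPM with the combination (log2 fold change -2.19 ± 0.21, adjusted p = 4.47e-08). NR1D2, its relative REV-ERB beta, had 48.4, 45.8 and 48.3 CPM against 17.8, 17.6 and 20.4 CPM (log2 fold change -1.35 ± 0.08). The cryptochrome gene CRY1 had 33.8, 35.6 and 37.5 CPM with DMSO and 12.8, 12.9 and 11.8 CPM with the combination (log2 fold change -1.51 ± 0.09). CRY2 went from 14.5, 14.6 and 14.3 CPM to 7.28, 5.35 and 5.81 CPM.

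The gene for BMAL1 moved the other way. ARNTL, as the table names it, had 4.88, 5.20 and 4.92 CPM with DMSO and 18.7, 17.3 and 19.7 CPM with the combination (log2 fold change 1.89 ± 0.12, adjusted p = 4.06e-11). NFIL3, a repressor that competes with the PAR bZIP factors, rose from 16.7, 18.1 and 18.2 CPM to 31.0, 24.2 and 29.4 CPM. NPAS2, a CLOCK paralog, rose by 0.25 ± 0.06 on the log2 scale, CLOCK itself was not called (0.08 ± 0.06), and ARNTL2, a BMAL1 paralog, fell by 0.32. In the list of clock activators and genes under ROR and REV-ERB, 3 of 6 tested members were called higher and 1 lower. The shares over all tested genes were 13% and 14.3%. One further gene, RORA, had 1.42 CPM or less in every library and was not called.

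Set beside the single drugs, 7 of the 12 E-box list members were not called different between the combination and SHP1705 alone. Differences from SHP1705 alone ran from -0.91 to 1.61 on the log2 scale. With SHP1705 alone all 12 were called lower than DMSO, with a median of -2.63, where 2.51% of all genes were called lower. PER3 had 0.709, 1.01 and 1.43 CPM with SHP1705 alone and 25.0, 24.2 and 25.3 CPM with carfilzomib alone. Against carfilzomib alone, the combination was lower for 11 of the 12 E-box list members, with a median log2 fold change of -2.26, where 4.67% of all genes were called lower. Against SHP1705 alone, 2 members were higher and 3 lower, where 11.8% of all genes were called higher and 12.4% lower. CRY1 was 1 of the 2: it had 5.63, 6.41 and 5.51 CPM with SHP1705 alone, below all 3 combination libraries (combination minus SHP1705, log2 fold change 1.10, adjusted p = 1.74e-08). NR1D1, NR1D2 and TEF lay lower with the combination than with SHP1705 alone, by 0.89, 0.42 and 0.91 on the log2 scale.

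**Figure D2:**
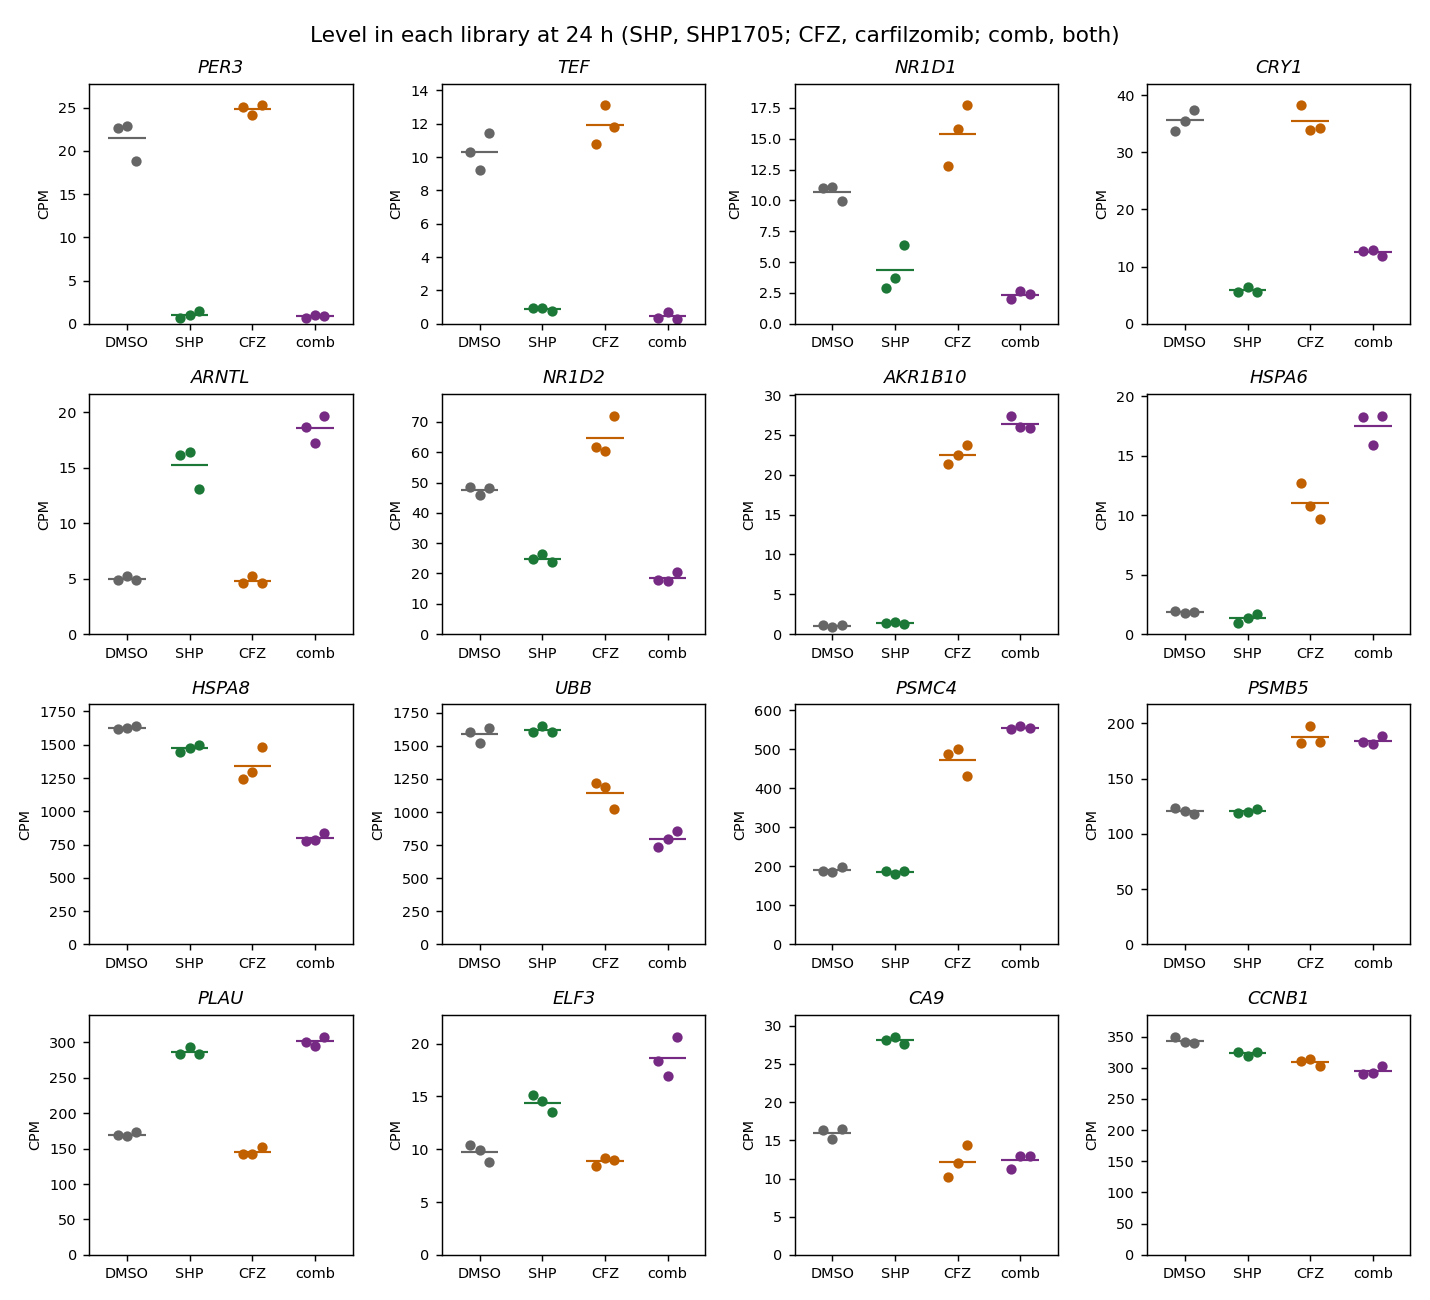
CPM in each of the 12 libraries at 24 h (vertical axes start at 0) for 16 genes; points are libraries and lines are means of 3. PER3, TEF and ARNTL in the combination lie on the side of SHP1705 alone. TEF lies below all 3 libraries of SHP1705 alone and ARNTL above them, the latter difference not called. AKR1B10 and PSMC4 sit near carfilzomib alone, and HSPA8 and UBB are lowest in the 3 combination libraries.

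Proteasome subunit genes rose as a whole set. All 14 tested subunits of the 20S core and all 19 of the 19S regulatory particle were called higher and none lower. Over all tested genes, 13% were called higher and 14.3% lower. The median log2 fold changes of the core and regulatory subunits were 0.86 and 0.80. PSMC4, an ATPase of the regulatory particle at chr19:39971165-39981764, had 189, 187 and 199 CPM with DMSO and 552, 559 and 554 CPM with the combination (log2 fold change 1.54 ± 0.05, adjusted p = 8.21e-16). PSMB5, the catalytic subunit that carfilzomib binds, had 124, 121 and 118 CPM against 183, 182 and 189 CPM (0.61 ± 0.05). The smallest rise was that of PSMD7, 0.25 on the log2 scale. The separate list of assembly factors and activators did not follow: 2 of 14 were called higher, 3 lower and 9 neither, with a median of -0.01. The 2 were POMP, an assembly factor, which rose from 154, 149 and 151 CPM to 305, 285 and 283 CPM, and PSME4, a proteasome activator, which rose by 0.71.

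The inducible subunits of the immunoproteasome fell instead. PSMB8 had 441, 426 and 471 CPM with DMSO and 304, 303 and 305 CPM with the combination (log2 fold change -0.55 ± 0.05), PSMB9 fell by 0.63 and PSMB10 by 0.53. The activator subunits PSME1 and PSME2 each fell by 0.29. In the whole list of immunoproteasome and antigen presentation genes, 7 of 12 were called lower and 1, HLA-C, higher. Over all tested genes, 14.3% were called lower and 13% higher. Without DMSO replicate 1, 5 of the list were called lower. Carfilzomib alone, against the same DMSO libraries, gave 8 of the 12 lower and none higher, where 11.4% of all genes were called lower.

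Genes around the proteasome were mixed. In the list of ubiquitin genes, the segregase VCP and its cofactors, 12 of 21 rose and 2 fell. The shares over all tested genes were 13% and 14.3%. VCP, which pulls ubiquitin-tagged proteins out of complexes, had 548, 538 and 567 CPM with DMSO and 959, 930 and 986 CPM with the combination (0.80 ± 0.04). Its cofactor UFD1 rose by 1.28 ± 0.05. UBB, a polyubiquitin gene whose near-identical repeats can share reads with other ubiquitin genes, was among those that fell. It had 1607, 1524 and 1638 CPM with DMSO and 737, 796 and 857 CPM with the combination (log2 fold change -0.996 ± 0.06, adjusted p = 5.34e-12). NFE2L1 and NFE2L2, which encode NRF1 and NRF2, were not called (-0.04 ± 0.05 and 0.05 ± 0.05).

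The proteasome change was close to that of carfilzomib alone. Carfilzomib alone gave calls of higher for the same numbers, 14 of 14 and 19 of 19, with medians of 0.79 and 0.83, where 10.1% of all genes were called higher. SHP1705 alone gave none in either direction at this threshold, where 4.46% of all genes were called. Both comparisons share the DMSO libraries with the combination. Between the combination and carfilzomib alone, which share no library, 1 core subunit (PSMB7, by 0.22) and 4 regulatory subunits were called higher and 2 lower. Here 9.02% of all genes were called, 4.36% higher and 4.67% lower. PSMC4 was 0.23 higher and PSMD12 was 0.14 lower, both on the log2 scale.

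**Figure D3:**
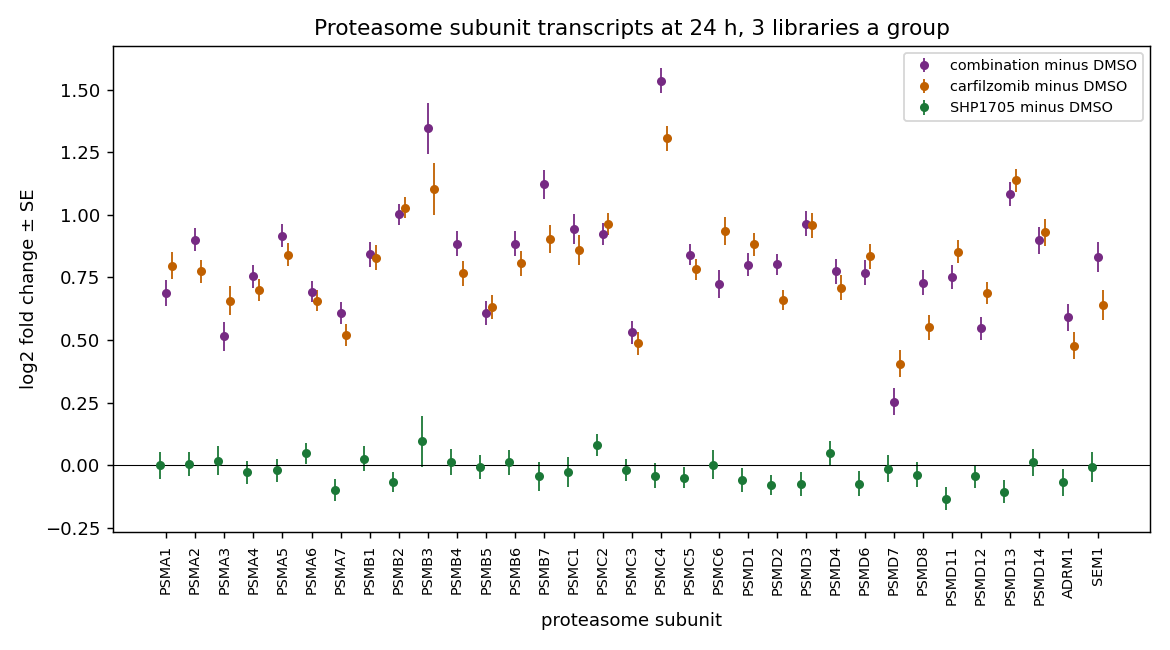
Log2 fold change against DMSO (vertical axis, points with SE bars, 3 libraries a group) for 33 proteasome subunit genes (horizontal axis). The combination and carfilzomib alone lie above 0 for each subunit, from 0.25 to 1.54 for the combination, while SHP1705 alone stays near 0.

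Heat shock genes split in direction. Of 28 tested chaperones and cochaperones, 10 rose, 5 fell and 13 were not called, and the median was 0.09. Among all tested genes 13% were called higher and 14.3% lower. Carfilzomib alone, against the same DMSO libraries, gave 11 higher and 2 lower, where 10.1% and 11.4% of all genes were. Against carfilzomib alone, 2 of the 28 were higher and 6 lower with the combination, where 4.36% and 4.67% of all genes were. HSPA6, the strictly inducible HSP70 gene, had 1.91, 1.79 and 1.87 CPM with DMSO and 18.3, 15.9 and 18.4 CPM with the combination (log2 fold change 3.24 ± 0.17, adjusted p = 9.28e-13). HSPB8, a small heat shock protein of chaperone-assisted autophagy, went from 9.52, 8.83 and 10.2 CPM to 25.3, 26.2 and 25.3 CPM. HSPA1A went from 715, 690 and 691 CPM to 1246, 1143 and 1290 CPM and HSPA1B rose by 0.52, but these near-identical copies can share reads.

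The 5 members that fell were HSPA8, DNAJA1, HSPH1, DNAJB1 and STIP1. HSPA8, the constitutive HSP70 at chr11:123057489-123062462, had 1617, 1629 and 1639 CPM with DMSO and 776, 787 and 837 CPM with the combination. The groups did not overlap, and the log2 fold change was -1.03 ± 0.05 (adjusted p = 3.41e-13). DNAJB1, an HSP40 cochaperone, fell from 290, 285 and 286 CPM to 235, 240 and 239 CPM. DNAJA1, HSPH1 and STIP1 fell by 0.42, 0.34 and 0.12 on the log2 scale, while HSP90AA1, the inducible HSP90, rose by 0.48.

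Selective autophagy receptors and lysosomal genes rose in part. In the autophagy list, 10 of 21 were called higher and none lower, which fell to 7 without DMSO replicate 1. Carfilzomib alone, against the same DMSO libraries, gave 8 higher and none lower. Over all tested genes, 13% were called higher and 14.3% lower with the combination, and 10.1% and 11.4% with carfilzomib alone. GABARAPL1, an ATG8 protein of the autophagosome membrane, had 19.9, 18.4 and 21.3 CPM with DMSO and 69.9, 67.4 and 68.6 CPM with the combination (log2 fold change 1.79 ± 0.08). SQSTM1, the receptor p62 for ubiquitin-tagged cargo, rose from 467, 453 and 460 CPM to 901, 848 and 857 CPM. In the lysosome list, 12 of 25 rose and 3 fell, and carfilzomib alone gave 8 higher and 3 lower. GLA, the alpha-galactosidase gene, led with 24.7, 22.7 and 25.8 CPM against 89.0, 95.4 and 85.8 CPM, and the sphingolipid activator precursor PSAP rose by 0.66.

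Antioxidant genes of the NRF2 list rose in 13 of 26 cases and fell in 4. With carfilzomib alone, against the same DMSO libraries, 15 were called higher and 4 lower. Over all tested genes, 13% were called higher and 14.3% lower with the combination, and 10.1% and 11.4% with carfilzomib alone. BLVRB, which reduces biliverdin, had 62.4, 62.4 and 62.7 CPM with DMSO and 138, 140 and 143 CPM with the combination (1.17 ± 0.05). The malic enzyme ME1 rose by 1.16 and heme oxygenase HMOX1 by 0.76. NQO1, a quinone reductase often used as a marker of NRF2, fell from 227, 214 and 226 CPM to 140, 147 and 155 CPM (-0.59 ± 0.06), and OSGIN1 fell by 0.97. AKR1B10, an aldo-keto reductase at chr7:134527567-134541412, had 1.09, 0.916 and 1.18 CPM with DMSO and 27.4, 26.0 and 25.9 CPM with the combination. Its log2 fold change of 4.64 ± 0.13 (adjusted p = 8.81e-17) was the largest rise among genes with a mean of at least 5 CPM. AKR1B10 had 21.3, 22.5 and 23.8 CPM with carfilzomib alone (4.41 against DMSO). Its difference between the combination and carfilzomib alone was not called (0.23, adjusted p = 0.112 in edgeR's test). Its close paralog AKR1B15 had at most 7 counts in any library.

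Genes of G2 and mitosis fell together by small amounts. Of 28 tested, 27 were called lower and none higher, where 14.3% of all tested genes were called lower and 13% higher. The median log2 fold change was -0.36, and leaving out 1 library of either group gave 24 to 27 called lower. MKI67, the proliferation antigen, had 343, 382 and 327 CPM with DMSO and 240, 245 and 243 CPM with the combination (-0.53 ± 0.05). UBE2C, a ubiquitin-conjugating enzyme that works with the anaphase-promoting complex, fell by 0.74, survivin (BIRC5) by 0.66 and TOP2A by 0.51. CCNB1, cyclin B1, went from 350, 341 and 340 CPM to 291, 292 and 302 CPM (-0.22 ± 0.04). CDC25C was the member not called.

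DNA replication and E2F genes were lower in 26 of 35 cases and higher in none, with a median of -0.34. Among all tested genes 14.3% were called lower and 13% higher. E2F1 had 139, 127 and 131 CPM with DMSO and 85.3, 90.4 and 84.3 CPM with the combination (-0.61 ± 0.06). The helicase gene MCM4 fell by 0.47. Among inhibitors of the cell cycle, CDKN1A (p21) went from 179, 179 and 178 CPM to 154, 158 and 154 CPM, and CDKN2C (p18) from 111, 105 and 100 CPM to 48.6, 55.6 and 55.1 CPM (-0.99 ± 0.07). MYC rose from 145, 146 and 144 CPM to 200, 205 and 197 CPM.

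Calls of lower in these genes were fewer with each single drug. With carfilzomib alone 14 of 28 G2 and mitosis genes were called lower and with SHP1705 alone 1 was, with medians of -0.15 and -0.08. Of the 35 replication genes, 13 and 6 were called lower, with medians of -0.12 and -0.12. Here 11.4% and 2.51% of all genes were called lower. Carfilzomib alone also gave 3 replication genes higher, where 10.1% of all genes were called higher. Against carfilzomib alone the combination was lower for 16 of these 28 and for 16 of 35 replication genes, where 4.67% of all genes were called lower. Against SHP1705 alone it was lower for 22 and 17, where 12.4% of all genes were. The calls against carfilzomib alone depend on the fit: over all genes, 1460 became 913 with only the groups compared. CDC25B, a phosphatase that starts mitosis, had 222, 220 and 221 CPM with DMSO, 199, 198 and 204 CPM with SHP1705, 179, 184 and 183 CPM with carfilzomib and 151, 145 and 144 CPM with both. The 4 groups did not overlap for this gene. For most of these genes no departure from the sum of the log2 effects was called: the interaction was called, as lower, for 2 of 28 and 0 of 35, against 0.272% of all genes.

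Genes of the integrated stress response and of the endoplasmic reticulum did not rise as a group. The counts of both lists stand beside 13% of all tested genes called higher and 14.3% lower. In the list of transcription regulators and targets of the integrated stress response, 4 of 24 were called higher and 8 lower. ATF4, its central factor, had 190, 200 and 200 CPM with DMSO and 152, 155 and 161 CPM with the combination (-0.34 ± 0.05). DDIT3, which encodes CHOP, was not called (-0.02 ± 0.12). CHAC1 had 4.65, 4.08 and 4.01 CPM with DMSO against 1.97, 3.49 and 2.65 CPM (-0.65 ± 0.22, adjusted p = 0.0264), a call lost without DMSO replicate 1 (adjusted p = 0.0997) or 2 (0.0503) or combination replicate 1 (0.145) or 3 (0.0681). In the endoplasmic reticulum list, 5 of 24 rose and 3 fell, by at most 0.34. The 5 became 2 without any one of DMSO replicates 1 and 2 and the 3 combination replicates, and 3 without DMSO replicate 3.

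Amino acid transporter genes were lower in 6 of 12 cases and higher in 2. Among all tested genes 14.3% were called lower and 13% higher. SLC1A4 fell by 0.78 and SLC7A2 by 0.75, while SLC3A2, the shared heavy chain of several transporters, rose by 0.35. SLC43A2, a transporter of large neutral amino acids that is not in this list, rose by 1.25. The number higher was 1 without any one of DMSO replicates 1 to 3 or combination replicates 1 and 2. Ribosomal protein genes were lower in 17 of 30 cases and higher in none, with a median of -0.14. This number was 10 without DMSO replicate 1.

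Inflammatory and matrix genes gave smaller sets. The counts of both lists stand beside 13% of all tested genes called higher and 14.3% lower. Of 23 NF-kB and cytokine genes, 7 were called higher and 1 lower. The call of lower was lost (0 lower) without any one of DMSO replicates 1 to 3 or combination replicates 2 and 3. It was also lost with no filter on low counts. Without combination replicate 1, 5 were called higher. IL6 had 2.83, 4.29 and 3.10 CPM with DMSO and 13.4, 9.49 and 9.77 CPM with the combination (1.67 ± 0.18), and the NF-kB inhibitor gene NFKBIA rose by 0.55. In the list of matrix, adhesion and plasminogen activator genes, 6 of 28 rose and 8 fell. PLAU, the urokinase gene, had 169, 168 and 173 CPM with DMSO and 301, 295 and 308 CPM with the combination (0.83 ± 0.04). With SHP1705 alone PLAU had 284, 294 and 284 CPM, on the side of the combination.

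**Figure D4:**
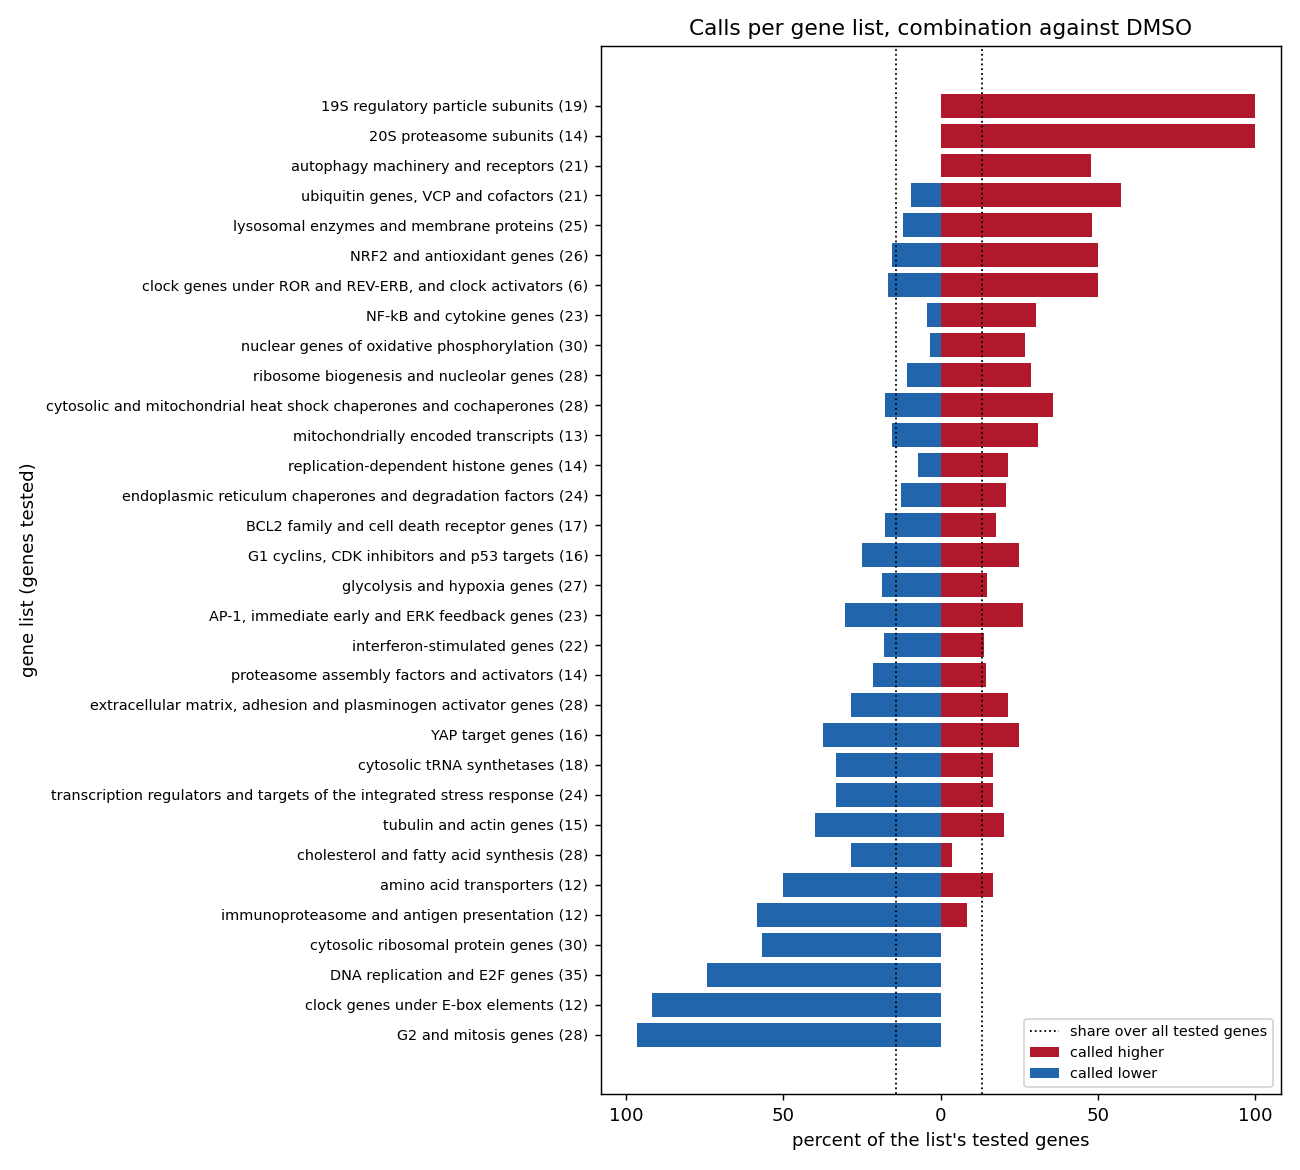
Percent of each gene list's tested genes called higher (red, to the right) or lower (blue, to the left) in the combination against DMSO, with the number tested in brackets and dotted lines at the shares over all tested genes, 13% and 14.3%. The proteasome lists stand at the top, and the E-box clock, replication, G2 and mitosis lists at the bottom.

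Several other genes were among those that moved furthest. B4GALNT1, which makes the gangliosides GM2 and GD2, had 3.74, 2.96 and 2.56 CPM with DMSO and 23.4, 25.2 and 23.6 CPM with the combination (2.96 ± 0.13). It had 22.4, 23.6 and 21.4 CPM with carfilzomib alone (2.86 against DMSO). MLLT11 rose by 2.36 and the acyl-CoA thioesterase ACOT13 by 1.81, both also higher with carfilzomib alone (2.84 and 1.62). HAGHL, a homolog of glyoxalase II, had 31.7, 32.8 and 31.0 CPM against 8.48, 8.19 and 10.8 CPM (-1.79 ± 0.12) and lay at 10.1 to 12.04 CPM with SHP1705 alone. SNN, CD22 and PPL fell by 1.50, 1.40 and 1.36, and MX1, an interferon-induced GTPase, rose by 1.61. SNN had 15.6, 16.3 and 15.8 CPM with DMSO, 8.24 to 9.15 CPM with SHP1705, 10.1 to 12.2 CPM with carfilzomib and 5.46, 5.80 and 5.58 CPM with both.

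A test of the interaction asked where the combination differed from the sum of the 2 drugs' log2 effects, and 78 genes (0.482%) were called, 34 higher (0.21%) and 44 lower (0.272%). The number moved between 20 and 477 when 1 of the 12 libraries was left out, the highest without carfilzomib replicate 2 and the lowest without SHP1705 replicate 2 or combination replicate 1. Of the 78, 16 were called in every one of these 12 fits. HSPA8 was among them: SHP1705 changed it by -0.14 without carfilzomib and by -0.74 with it (interaction -0.60 ± 0.07, adjusted p = 0.000104). UBB was another, with 0.03 without and -0.52 with carfilzomib (interaction -0.55 ± 0.08), and so was SLC43A2, an amino acid transporter gene, with -0.02 and 0.71. CRY1 and NR1D2 were also called in all 12 fits, with interactions of 1.10 ± 0.13 and -0.87 ± 0.11. SLC43A2 had 24.4, 27.4 and 28.1 CPM with DMSO, 24.3 to 27.9 CPM with SHP1705, 36.4 to 42.9 CPM with carfilzomib and 65.6, 65.2 and 59.9 CPM with both.

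Hypoxia and glycolysis genes were part of the interaction. Of 27 tested, 6 were called with a negative interaction and none with a positive one, where 0.272% and 0.21% of all genes were. CA9, a carbonic anhydrase induced by hypoxia, had 16.4, 15.2 and 16.5 CPM with DMSO, 28.2, 28.6 and 27.6 CPM with SHP1705, 10.2, 12.1 and 14.4 CPM with carfilzomib and 11.3, 12.9 and 13.0 CPM with the combination. The combination and carfilzomib alone overlapped for this gene (difference 0.02 on the log2 scale, adjusted p = 0.949 in edgeR's test). LDHA, lactate dehydrogenase A, had 2062, 2031 and 2205 CPM with DMSO, 2086 to 2258 CPM with SHP1705, 1947 to 2104 CPM with carfilzomib and 1547, 1586 and 1645 CPM with both. The other 4 genes, BNIP3, P4HA1, NDRG1 and PGK1, are named because they complete this count, with their values known. Each was not called in the combination against DMSO, with log2 fold changes from -0.08 to -0.01. With 1 library left out, the interaction of PGK1 was called in 6 of the 12 fits and that of CA9 in 9. LDHA, BNIP3, P4HA1 and NDRG1 were called in all 12. With SHP1705 alone 14 of the 27 were called higher and none lower, where 1.95% of all genes were called higher. In the combination against DMSO, 4 of the 27 were called higher and 5 lower, where 13% and 14.3% of all genes were.

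**Figure D5:**
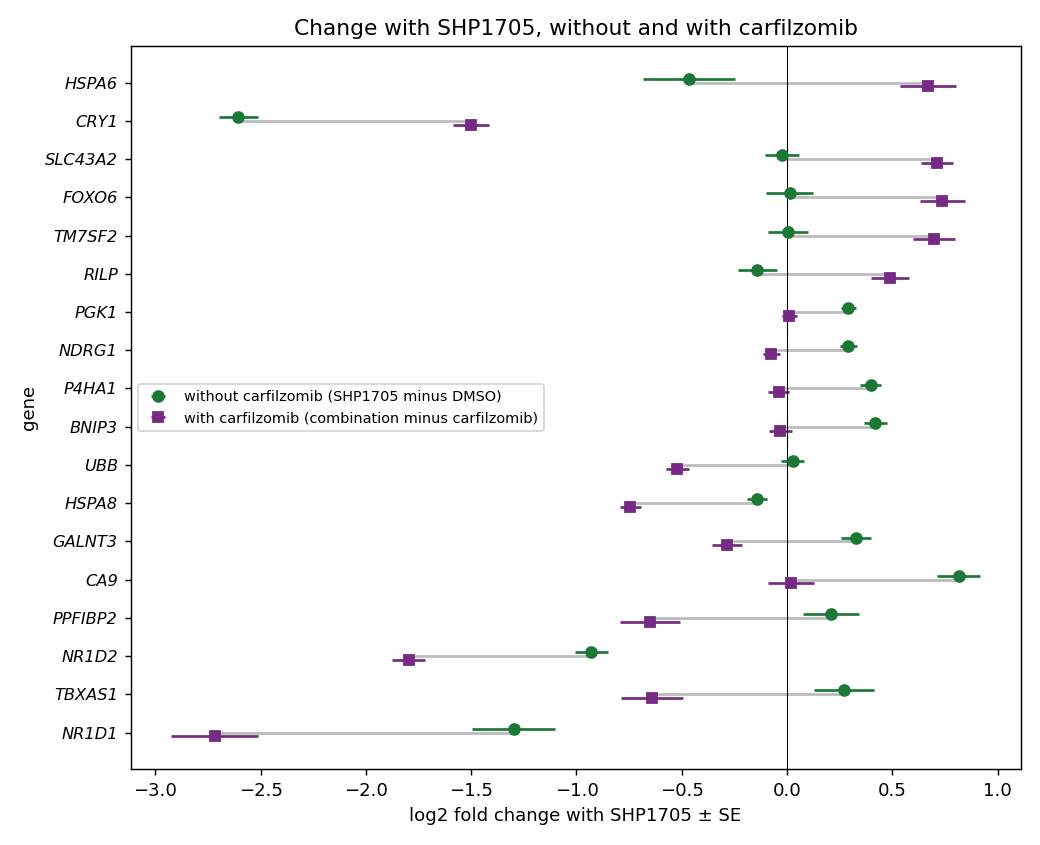
Log2 fold change with SHP1705 (horizontal axis, with SE bars) without carfilzomib (circles, SHP1705 minus DMSO) and with it (squares, combination minus carfilzomib) for 18 genes with a called interaction, sorted by the interaction. HSPA8 and UBB fall with SHP1705 mainly in the presence of carfilzomib, and BNIP3, P4HA1, NDRG1 and PGK1 rise in its absence.

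Values at 8 h are set beside these without a test, since each table was handled separately. In the MG132 experiment, with 10 uM SHP1705 and 100 nM MG132, PER3 was at 13.8 to 14.7 CPM with DMSO and at 3.68 to 4.99 CPM with both drugs. HSPA8 was at 3326 to 3458 CPM with DMSO and at 9590 to 9791 CPM with that combination at 8 h, the opposite side from the 24 h carfilzomib combination. In the same 8 h experiment HSPA8 was at 3317 to 3425 CPM with MG132 alone and at 3107 to 3293 CPM with SHP1705 alone. In the 8 h carfilzomib experiment several libraries go against their labels: PER3 was at 8.19, 2.06 and 1.55 CPM in the libraries labelled DMSO and at 1.92, 7.69 and 8.20 CPM in those labelled combination. HSPA1A was at 14559, 23605 and 23242 CPM in the former and at 892, 12020 and 15052 CPM in the latter, so no direction was drawn from that experiment. At 24 h PER3 was low in all 6 libraries labelled with SHP1705, and PSMC4 was high in all 6 labelled with carfilzomib.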

How the data were processed

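The authors deposited polyA RNA-seq counts per gene, as whole numbers, in 1 table for each experiment. Trimmomatic, FastQC, HISAT2, featureCounts and the build hg38 are named in the submitters' processing notes; for versions, annotation release and strand setting the sources used here give nothing, so antisense and overlapping genes cannot be told apart. The 12 libraries of the 24 h carfilzomib table (18864725 to 34008423 counts) entered 1 fit of 4 groups with 3 libraries each. Groups came from the sample labels, and 0 columns were left without a sample. Genes passing filterByExpr were tested with edgeR 4.0.16 (limma 3.58.1, R 4.3.3; quasi-likelihood F-test, TMM, Benjamini-Hochberg over all genes, call at adjusted p under 0.05). Log2 fold changes use a prior count of 0.125, errors are standard errors, and CPM uses the TMM-adjusted library size. Alternatives included DESeq2 1.42.0. The tests were checked on simulated data.

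Named genes were the 12 highest and 12 lowest called genes (mean 5 CPM or more, non-overlapping groups), up to 4 genes of each of 40 lists by p, all clock genes, the 6 highest and 6 lowest of the other 3 contrasts and a fixed set of drug response genes. The members and lists were chosen with earlier results of these data known. Of 750 list symbols, 705 were tested. Promoters of 250 bases before the start came from a RefSeq table (GRCh38.p14), and the printed strands were checked against GENCODE 29 transcripts. Plots were made in Python 3.11.15 (matplotlib 3.10.9). A few named genes are not reported here.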

Additional observations from a re-analysis of the deposited data

Results flagged for a closer look

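For 78 genes the change with SHP1705 differed with and without carfilzomib, by the interaction term of edgeR's fit (log2 scale, combination minus carfilzomib, less SHP1705 minus DMSO). The 12 given here are the 6 highest and 6 lowest with a mean of at least 5 CPM. Other genes named above, such as HSPA8 and UBB, were also called. The interaction was positive for HSPA6 (1.13, adjusted p = 0.0456), CRY1 (1.10, 0.000104), SLC43A2 (0.74, 0.00218), FOXO6 (0.73, 0.0320), TM7SF2 (0.69, 0.0244) and RILP (0.63, 0.0270). It was negative for NR1D1 (-1.42, 0.0269), TBXAS1 (-0.91, 0.0410), NR1D2 (-0.87, 0.000382), PPFIBP2 (-0.86, 0.0456), CA9 (-0.80, 0.0151) and GALNT3 (-0.61, 0.00365). All 12 kept their sign when any 1 of the 12 libraries was left out, but only CRY1, NR1D2, SLC43A2 and GALNT3 were called in each of those fits. The other 8 were called in fewer of the 12 fits: CA9 in 9, RILP in 6, NR1D1 and TM7SF2 in 5, HSPA6 in 3, FOXO6 and TBXAS1 in 2 and PPFIBP2 in 1.

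TM7SF2, a sterol reductase gene, had 16.2, 17.9 and 20.4 CPM with DMSO, 17.5 to 19.4 CPM with SHP1705, 10.2, 9.85 and 9.50 CPM with carfilzomib and 15.4, 16.1 and 16.3 CPM with both, so it was lowest in the 3 libraries of carfilzomib alone. FOXO6, a forkhead factor gene with the interaction called in 2 of the 12 fits, was at 14.5 to 21.5 CPM in the 9 other libraries and at 28.5, 28.7 and 30.4 CPM with the combination.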

How the results depend on the processing

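The number of genes called in the combination against DMSO, 4424, was 4429 with RLE factors, 4278 with no filter, 4283 with DESeq2, 5511 with only the 6 libraries compared and 3453 to 4880 with 1 library left out, and every gene called both ways kept its direction. Against carfilzomib alone, 1460 became 913 with only the groups compared and 869 to 1852 with 1 library left out (869 without combination replicate 3, 877 without combination replicate 2). The list counts against carfilzomib alone were not repeated in these fits. Replicates of carfilzomib alone differed most, with a chi-square per degree of freedom of 7.27 to 16.3 between pairs. The other groups had 3.29 to 6.08, while the main fit shares 1 estimate of the spread. Against SHP1705 alone, 3912 ranged from 3038 to 4426. The interaction, 78, became 364 with no filter, 360 with DESeq2 and 20 to 477 with 1 library left out. The cause was not tested. None of the 203 named genes changed direction against DMSO. Calls lost without 1 library were those of AKR1C1, AKR7A2, ATP8, CA9, CHAC1, CYP1B1, GALNT3, MT2A, RILP, TBC1D3D and TBXAS1, and that of GALNT3 also with no filter.

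The labels number the replicates in each group. With a replicate block the count against DMSO was 4482, against carfilzomib alone 1556, against SHP1705 alone 4001 and for the interaction 91. Same-numbered DMSO and combination libraries deviated from their group means with correlations of 0.0159 to 0.0858, 0 of 3 above 0.1. Those with different numbers gave -0.0784 to 0.021. Over all 4 groups, 2 of 18 same-numbered pairs were above 0.1. These small values do not settle whether the numbers pair the libraries, and the main fit had no replicate block. Low counts limit genes with under 10 CPM in every library, among them PER2, DBP, CIART, RORA, BHLHE41 and AKR1C1.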

Other observations

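The counts in these further lists stand beside 13% of all tested genes called higher and 14.3% called lower, and single genes are described. Of 22 interferon-stimulated genes, 3 rose and 4 fell in the combination against DMSO. The 3 risers were MX1, OAS1 and STAT2 (by 0.22), while OAS3 had 28.4, 27.3 and 27.4 CPM with DMSO and 15.2, 13.4 and 16.2 CPM with the combination (-0.89 ± 0.09). OAS1 and OAS3 are sensors of double-stranded RNA from the same gene family. Among 14 replication-dependent histone genes, H2BC5 had 9.19 to 9.75 CPM with DMSO and 16.3 CPM or more with the combination (1.00 ± 0.12), H2AC6 and H2BC4 rose by 0.77 and 0.79, and H1-4 fell by 1.00. The libraries were made from polyA RNA.

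Of 28 genes of cholesterol and fatty acid synthesis, 8 fell and 1 rose. The call of higher was lost without any one of DMSO replicate 1 and combination replicates 1 and 3 (0 higher). LSS, lanosterol synthase, had 248, 242 and 221 CPM with DMSO and 161, 149 and 162 CPM with the combination (-0.59 ± 0.05), and the desaturase genes FADS1 and FADS2 fell by 0.44 and 0.53. Of 17 genes of the BCL2 family and death receptors, MCL1, BCL2L1 and BOK fell by 0.33, 0.24 and 0.38, and BID, TNFRSF10A and BAK1 rose by 0.29, 0.28 and 0.15. DUSP1, a phosphatase of stress-activated kinases, rose from 32.4, 28.6 and 30.1 CPM to 65.1, 67.1 and 61.6 CPM (1.09 ± 0.09), and DUSP6, a phosphatase of ERK, fell by 0.32.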
